A study of Mus musculus with 9 samples.

Results

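The Bcl2 family decides whether a cell keeps or breaks its mitochondrial outer membrane, and 10 of its genes were followed here through B cells of 3 heavy chain genotypes. The genes were the pro-survival members Bcl2, Mcl1 and Bcl2l1, the effectors Bax and Bak1, and the BH3-only members Bcl2l11, Bbc3, Pmaip1, Bad and Bid. A gene was read through the probe sets that carried its symbol and no other, and where there were several the brightest over all arrays was taken. Of the 10 genes, 9 had such a probe set, among 22180 genes in all. No probe set carried Bax as its single symbol in the annotation used here, so Bax has no value, and 1 further probe set shared by Gpr137 and Bad was not used. Those 9 genes had 11 probe sets, since Bcl2 and Mcl1 had 2 each.

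The samples were follicular B cells sorted from mouse spleen, measured on 9 arrays, 3 per genotype. The genotypes were Igh ε/ε, Igh γ1/γ1 and Igh wild-type, which for the modified alleles names the ε and the γ1 constant region genes of the heavy chain locus. All of these mice are also labelled VJk5, a term the labels do not explain, and the study describes them as polyclonal. They were 6 to 12 weeks old and kept in a specific-pathogen-free facility. The 3 replicates of a genotype are called independent, but the labels do not say that each came from a separate animal, so the spread between them may in part be technical. The comparisons ask how ε/ε and γ1/γ1 cells differ from wild-type cells and from each other.

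All 6 measured B cell markers lay above the array median on all 9 arrays, with mean log2 signals of 8.63 to 9.28, and all 4 measured follicular markers did too. Of these 4, Zfp318 differed by −1.98 in ε/ε against wild-type cells (limma adjusted p = 0.0015). Fcer2a (0.54), Cxcr5 (0.69) and Cr2 (0.21) did not pass. Further readings moved with genotype too. The 13 macrophage markers averaged 6.48, 4.64 and 4.16 in ε/ε replicates 1, 2 and 3, against 3.76 to 3.93 on the other 6 arrays, and 13, 10 and 10 of them were above the array median, against 8 to 9. The 7 marginal zone markers averaged 5.90 to 6.05 in ε/ε, 5.55 to 5.77 in γ1/γ1 and 4.84 to 5.09 in wild-type cells. In ε/ε against wild-type cells 3 of those 7 differed, Il9r by 2.82, Ackr3 by 2.28 and Myof by 1.68 (limma adjusted p = 0.00152, 0.00127 and 0.00378), while Cr2 (0.21), Cd9 (0.07) and Cd1d1 (−0.17) did not pass and S1pr3 was not tested. The 6 measured T cell markers averaged 2.83 to 3.16, below the array medians of 3.53 to 3.69. Xist, the RNA that coats the inactive X of female cells, stood at 5.25 (ε/ε replicate 1) and 4.53 (γ1/γ1 replicate 1) on 2 arrays and at 10.37 to 10.79 on the other 7. The Y-linked gene Eif2s3y read 7.40 and 7.99 on those 2 arrays, 5.40 in ε/ε replicate 2 and 2.75 to 3.64 elsewhere. Kdm5d, also Y-linked, read 5.90 and 6.08 on the same 2 arrays, 4.50 in ε/ε replicate 3 and 2.22 to 3.26 elsewhere. Uty read 5.08 and 6.52 there, 3.61 and 3.28 in ε/ε replicates 2 and 3, and 2.68 to 2.97 elsewhere, so Y-linked readings were raised on further ε/ε arrays too. The part of these differences in the results was not tested. Member differences without ε/ε replicate 1, and γ1/γ1 minus wild-type differences without γ1/γ1 replicate 1, are given below; the macrophage and marginal zone readings involve all 3 ε/ε arrays and cannot be told apart from the genotype by leaving arrays out. In sorted bulk RNA, fewer cells of a kind and less RNA per cell cannot be told apart.

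In healthy cells, Bcl2, Mcl1 and Bcl2l1 (Bcl-xL) hold the effectors Bax and Bak1 in check. BH3-only proteins such as Bcl2l11 (Bim), Bbc3 (Puma) and Pmaip1 (Noxa) are raised or activated by stress or loss of growth signals, and they bind the pro-survival proteins or engage the effectors directly. Freed effectors form pores in the mitochondrial outer membrane, cytochrome c escapes, and caspases are activated. In mature B cells, signals from the B cell receptor and from the cytokine BAFF sustain survival, Bim is a main opponent, and loss of Mcl1 is lethal to the cells.

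The promoters of Bcl2 and Mcl1 are shown because these were the only 2 family genes with a probe set that passed the test. Each line is the 250 bases before the RefSeq transcription start in the build GRCm38.p6, written in the direction of the gene. Capitals mark GC boxes, the letters GGGCGG or their complement, which zinc finger factors of the Sp family bind. The Bcl2 window is chr1:106714291-106714540 on the minus strand and the Mcl1 window is chr3:95658471-95658720 on the plus strand.
Bcl2: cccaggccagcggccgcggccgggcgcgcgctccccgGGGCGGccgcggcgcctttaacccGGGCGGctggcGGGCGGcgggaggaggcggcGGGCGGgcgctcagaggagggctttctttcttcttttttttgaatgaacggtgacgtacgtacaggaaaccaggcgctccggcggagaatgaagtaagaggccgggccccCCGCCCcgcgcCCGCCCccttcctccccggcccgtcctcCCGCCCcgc
Mcl1: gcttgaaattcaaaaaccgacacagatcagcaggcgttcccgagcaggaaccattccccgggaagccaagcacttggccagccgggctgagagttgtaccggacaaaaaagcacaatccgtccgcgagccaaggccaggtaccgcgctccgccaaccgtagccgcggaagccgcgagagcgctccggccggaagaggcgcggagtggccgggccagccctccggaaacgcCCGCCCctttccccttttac
The Bcl2 window held 7 GC boxes and 74.8% G or C. The Mcl1 window held 1 GC box and 64.4% G or C. Counts of GC boxes in the windows of the other members ran from 0 (such as Bak1) to 7 (a Bbc3 window). Of 32851 mouse promoter windows of this length, 32.7% held at least 1 GC box. On both strands, 5 further motifs were searched, the NF-kB motif as GGGA and CC with any 4 bases between: TGANTCA for AP-1 (in 6.75% of the windows), TGACGTCA for CREB (1.55%), CACGTG for Myc and its relatives (6.02%), the NF-kB motif (17.6%) and GTAAACA for FoxO (3.17%). Neither the Bcl2 nor the Mcl1 window held any of these letters.

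**Figure D1:**
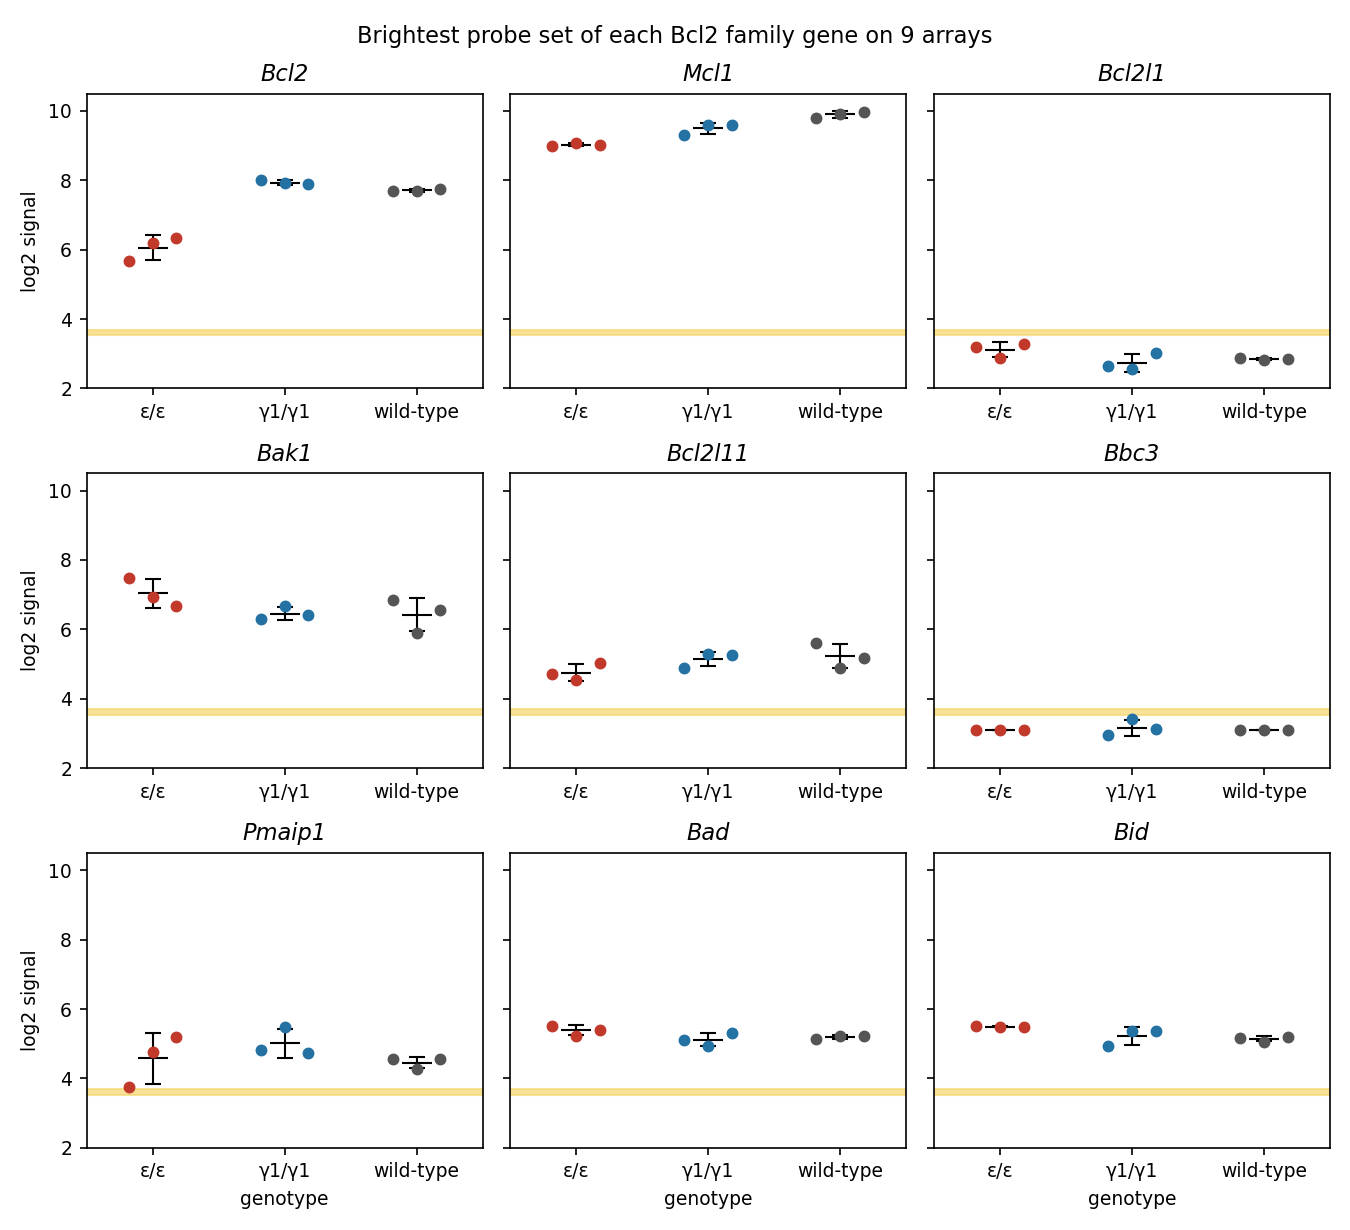
log2 signal (vertical axis) of the brightest probe set of each of 9 Bcl2 family genes on each array (points), by genotype. The horizontal tick is the mean of 3 arrays, bars are ± SD, and the yellow band is the range of the array medians, 3.53 to 3.69; all 3 ε/ε arrays lie below the other 6 for Bcl2 and for Mcl1, and Bcl2l1 and Bbc3 lie under the band throughout.

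Among the pro-survival genes, Bcl2 was lower in ε/ε cells than in either other genotype. Bcl2 encodes the founding survival protein of the family. Its brighter probe set (17226043) read 5.66, 6.18 and 6.34 in ε/ε replicates 1, 2 and 3. It read 8.0, 7.92 and 7.88 in γ1/γ1 cells. It read 7.68, 7.70 and 7.76 in wild-type cells. The 3 ε/ε arrays therefore stood apart below the other 6, while the lowest γ1/γ1 array was above the highest wild-type array by a small margin. The means were 6.06 ± 0.36, 7.93 ± 0.06 and 7.71 ± 0.04 (SD, n = 3 each), so the spread of Bcl2 was also widest in ε/ε cells.

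Against wild-type cells, Bcl2 fell by 1.66 on the log2 scale in ε/ε cells (SE 0.18, 95% interval −2.05 to −1.26), a 3.15-fold lower signal. In limma's test over 12170 genes with Benjamini-Hochberg adjustment its adjusted p was 0.00152, the 19th smallest p in that comparison. Replicate 1 of ε/ε held the lowest Bcl2 reading as well as the low Xist and the highest macrophage markers. Without that array Bcl2 was still lower, by −1.45 with a limma adjusted p of 0.00259, and with the 7 arrays of high Xist alone the difference was −1.45 with an adjusted p of 0.00497. Over 22 other ways of processing, the Bcl2 difference from wild-type ran from −1.80 to −1.04 and limma's adjusted p from 0.000782 to 0.0177.

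The difference in Bcl2 between ε/ε and γ1/γ1 cells was −1.87 (SE 0.18, 95% interval −2.26 to −1.48, 3.66-fold; limma adjusted p = 0.00169). It ranked 6th by p among the genes tested in that comparison, and it was −1.67 with an adjusted p of 0.00181 without ε/ε replicate 1. In γ1/γ1 against wild-type cells the Bcl2 difference was 0.22 (95% interval −0.17 to 0.61; limma adjusted p = 0.839). That interval leaves room for a change of either sign, although the values of the 2 groups did not overlap.

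The dimmer probe set of Bcl2 (17216395) read 5.29, 5.05 and 5.53 on ε/ε, 6.24, 6.15 and 5.95 on γ1/γ1 and 5.97, 6.10 and 5.70 on wild-type arrays. Here too all 3 ε/ε arrays lay below the other 6. A fit was also run on all 22340 probe sets that passed the filter, whatever their annotation. There the ε/ε minus wild-type difference of the dimmer probe set was −0.64 (SE 0.18, limma adjusted p = 0.0771). In that comparison 6.04% of the probe sets passed. Against γ1/γ1 the difference was −0.82 (limma adjusted p = 0.046), where 3.83% passed. That call was lost in 11 of 13 alternatives, with adjusted p up to 0.195, including each single array left out except ε/ε replicate 3. Over the 9 arrays, the Bcl2 probe sets correlated with a Pearson r of 0.90, given as a description of arrays that fall into 3 genotypes.

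Mcl1 encodes a short-lived survival protein on which many blood cells depend, and its 2 probe sets gave different results. The brighter one (17407826) read 8.98, 9.08 and 9.02 in ε/ε cells. It read 9.30, 9.59 and 9.59 in γ1/γ1 cells. It read 9.80, 9.91 and 9.98 in wild-type cells. No genotype overlapped another on this probe set: ε/ε was lowest, γ1/γ1 between and wild-type highest. The means were 9.03 ± 0.05, 9.50 ± 0.17 and 9.90 ± 0.09 (SD, n = 3 each).

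The ε/ε minus wild-type difference of this Mcl1 probe set was −0.87 (SE 0.14, 95% interval −1.17 to −0.57, a 1.83-fold lower signal; limma adjusted p = 0.00753). It was −0.85 without ε/ε replicate 1 (adjusted p = 0.0224) and −0.85 with the arrays of high Xist alone (limma adjusted p = 0.0207). The ε/ε minus γ1/γ1 difference was −0.47 (95% interval −0.77 to −0.17; limma adjusted p = 0.0945). The γ1/γ1 minus wild-type difference was −0.40 (95% interval −0.70 to −0.10; limma adjusted p = 0.633). Neither of these passed the adjusted threshold of 0.05.

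The dimmer Mcl1 probe set (17400418) read 8.41, 8.14 and 8.07 on ε/ε, 8.33, 8.14 and 8.26 on γ1/γ1 and 8.32, 8.28 and 8.26 on wild-type arrays. The genotypes overlapped on it. Its ε/ε minus wild-type difference was −0.08 (95% interval −0.40 to 0.23; limma adjusted p = 0.761), so the interval does not reach the −0.87 of the brighter probe set. Its γ1/γ1 minus wild-type difference was −0.04 (limma adjusted p = 0.977, where 0.13% of probe sets passed) and its ε/ε minus γ1/γ1 difference was −0.04 (adjusted p = 0.908). The 2 Mcl1 probe sets correlated with a Pearson r of 0.19 over 9 arrays. In the fit of all probe sets, the brighter Mcl1 probe set had a limma adjusted p of 0.0131 against wild-type, and 0.0509 or 0.0573 without wild-type replicate 2 or 3. With the mean of the 2 probe sets as the value of Mcl1, the difference from wild-type was −0.48 (limma adjusted p = 0.0428), and −0.51 (adjusted p = 0.0568) when this was joined to the arrays of high Xist.

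The sources used here do not give the strand or position of a probe set, but the order of the identifiers bears on these pairs. Probe sets are numbered along chromosomes in runs of genes of 1 strand. Of 16044 genes with a single probe set, 15992 (99.7%) sat among neighbours mostly of their own strand. Neighbours were the nearest 10 probe sets on each side that carried a single symbol of another gene of known strand. The brighter Bcl2 probe set had 20 of 20 neighbours of Bcl2's own strand and the dimmer had 1 of 20. For Mcl1 this was turned around. The brighter probe set, which differed between ε/ε and wild-type cells, had 1 of 20 neighbours of Mcl1's own strand. The dimmer, which overlapped between genotypes, had 18 of 20. Such layouts were common: of 451 tested genes with 2 probe sets, 394 (87.4%) had 1 in an own-strand and 1 in an other-strand run. Of these 394, 156 (39.6%) had the brighter probe set in the other-strand run, as Mcl1 did. The probe sets of Bcl2l1, Bcl2l11, Bak1, Bbc3, Bad and Bid each had 17 to 20 of 20. Pmaip1 had no strand in the sources used here, so its probe set was not placed. Whether the brighter Mcl1 and the dimmer Bcl2 probe sets read the transcripts of their genes was not tested. The fall of Mcl1 is reported for its brighter probe set. With the probe set in the own-strand run taken for each gene, a choice made after seeing these values, Bcl2 was called and Mcl1 was not (−0.08; limma adjusted p = 0.752).

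**Figure D2:**
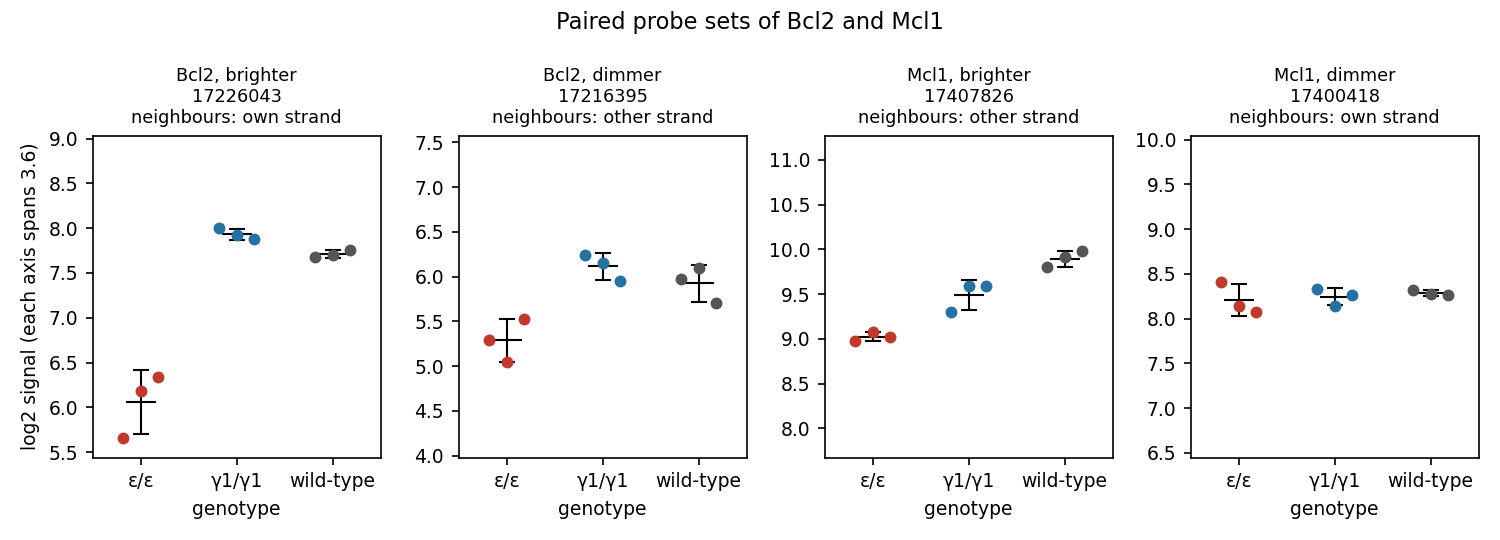
log2 signal (vertical axis) of the 2 probe sets of Bcl2 and of Mcl1 on each array (points), by genotype, with the mean (tick) and ± SD (bars) of 3 arrays; each axis spans the same number of log2 units. Both Bcl2 probe sets are lower on all 3 ε/ε arrays, while for Mcl1 only the brighter probe set is, and the dimmer one lies between 8.07 and 8.41 on all 9 arrays.

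Bcl2l1 encodes Bcl-xL, the survival protein that activated B cells raise. Its probe set (17392991) read 3.19, 2.88 and 3.28 on ε/ε, 2.64, 2.55 and 3.03 on γ1/γ1 and 2.88, 2.83 and 2.86 on wild-type arrays. It was below the array median on all 9 arrays, so it was left out of the fit and no difference between genotypes is given. A reading this low does not show that the transcript was missing.

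Of the effectors, Bak1, whose protein forms pores once freed, had a value and Bax had none. Bak1 read 7.48, 6.94 and 6.68 in ε/ε cells. It read 6.29, 6.67 and 6.40 on γ1/γ1 and 6.84, 5.89 and 6.55 on wild-type arrays. The ε/ε arrays overlapped the wild-type arrays, and the lowest ε/ε array was level with the highest γ1/γ1 array to within 0.01. The ε/ε minus wild-type difference of Bak1 was 0.61 (SE 0.27, 95% interval 0.01 to 1.20; limma adjusted p = 0.196), which did not pass. The highest reading was again that of ε/ε replicate 1, and without it the difference was 0.38 (limma adjusted p = 0.452). Bak1 was 0.58 against γ1/γ1 (95% interval −0.02 to 1.17; adjusted p = 0.265), and γ1/γ1 minus wild-type was 0.03 (95% interval −0.57 to 0.62; limma adjusted p = 0.99).

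None of the BH3-only genes passed in any comparison. Bcl2l11 encodes Bim, the main killer of B cells that lose survival signals or bind self antigen. It read 4.70, 4.53 and 5.02 on ε/ε, 4.90, 5.28 and 5.26 on γ1/γ1 and 5.60, 4.90 and 5.18 on wild-type arrays. The genotypes overlapped. Its ε/ε minus wild-type difference was −0.47 (SE 0.21, 95% interval −0.94 to −0.01; limma adjusted p = 0.194), its ε/ε minus γ1/γ1 difference −0.40 (adjusted p = 0.326) and its γ1/γ1 minus wild-type difference −0.08 (adjusted p = 0.96). Without ε/ε replicate 1 the difference of Bcl2l11 from wild-type was −0.45 (limma adjusted p = 0.325).

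Bid links death receptors to mitochondria when caspase-8 cuts it. It read 5.50, 5.47 and 5.49 on ε/ε, 4.93, 5.38 and 5.38 on γ1/γ1 and 5.16, 5.06 and 5.20 on wild-type arrays. All ε/ε arrays lay above all other arrays, by a small margin and with an SD of 0.01. The ε/ε minus wild-type difference of Bid was 0.35 (95% interval 0.01 to 0.68; limma adjusted p = 0.192) and the ε/ε minus γ1/γ1 difference 0.26 (adjusted p = 0.373). The γ1/γ1 minus wild-type difference of Bid was 0.09 (adjusted p = 0.926). Without ε/ε replicate 1 the ε/ε minus wild-type difference was 0.34 (limma adjusted p = 0.295), and without γ1/γ1 replicate 1 the ε/ε minus γ1/γ1 difference was 0.11 (adjusted p = 0.72).

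Bad, a sensitiser held inactive by phosphorylation when growth factors are present, read 5.52, 5.23 and 5.41 in ε/ε cells. It read 5.12, 4.93 and 5.31 on γ1/γ1 and 5.14, 5.22 and 5.22 on wild-type arrays. The ε/ε arrays were above the wild-type arrays but overlapped γ1/γ1. The difference of Bad from wild-type was 0.19 in ε/ε (95% interval −0.13 to 0.51; limma adjusted p = 0.446) and −0.07 in γ1/γ1 (adjusted p = 0.937). Without ε/ε replicate 1 the first of these was 0.13 (limma adjusted p = 0.69).

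Pmaip1 encodes Noxa, which binds Mcl1 and is induced by p53. It read 3.76, 4.77 and 5.20 on ε/ε, 4.81, 5.49 and 4.73 on γ1/γ1 and 4.55, 4.27 and 4.55 on wild-type arrays. The ε/ε arrays spread widely, with an SD of 0.74, from the lowest of all 9 readings (replicate 1) to one below only the highest γ1/γ1 reading. All γ1/γ1 arrays exceeded the wild-type arrays, by 0.55 in the mean (95% interval −0.19 to 1.29; limma adjusted p = 0.791). The ε/ε minus wild-type difference of Pmaip1 was 0.12 (95% interval −0.63 to 0.86; limma adjusted p = 0.871), an interval wide enough to hold a change of either sign. Single ε/ε arrays set the size and sign of this difference: it was 0.52 without replicate 1 (limma adjusted p = 0.269), 0.02 without replicate 2 (adjusted p = 0.984) and −0.19 without replicate 3 (adjusted p = 0.767). The ε/ε minus γ1/γ1 difference of Pmaip1 was −0.43 (limma adjusted p = 0.501), and −0.03 (adjusted p = 0.968) without ε/ε replicate 1.

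Bbc3 encodes Puma, the other p53-induced BH3-only protein of the set. Its probe set (17474097) was below the array median on all 9 arrays and was not tested. It read 3.10 on all 3 ε/ε and all 3 wild-type arrays and 2.94, 3.41 and 3.12 in γ1/γ1 cells. Those 6 readings were identical to the last deposited digit. Ties between at least 2 arrays occurred for 18973 of the 41345 probe sets (45.9%), while no 2 arrays were identical. The share of probe sets with 6 tied arrays was not counted, and no other member probe set had more than 2. The small spread of Bbc3 is therefore no measure of its precision.

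Set together, 7 of the 10 genes were tested. Between ε/ε and wild-type cells 2 of the 7 were called, Bcl2 and Mcl1 (brighter probe set), both lower. Of all genes tested, 6.34% were called in either direction and 4.02% lower. With the own-strand probe set of each gene, chosen after seeing these values, only 1 member was called, Bcl2. The values of the groups did not overlap for 4 of the 7 (Bcl2, Mcl1, Bad and Bid), against 28.4% of all genes. The median difference of the 7 was 0.12, against −0.01 over all genes, so they did not move in 1 direction as a group. The background depends on single arrays, most on wild-type replicates 2 and 3. With all arrays 772 genes were called, and 512, 186 and 210 without wild-type replicate 1, 2 and 3. Leaving out any ε/ε or γ1/γ1 array gave 525 to 789.

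Between γ1/γ1 and wild-type cells none of the 7 was called by limma, and 0.0411% of all genes were. Mcl1 alone had an unadjusted p under 0.05 (0.0142). The values did not overlap for 3 of the 7 (Bcl2, Mcl1 and Pmaip1), against 12.4% of all genes, and the median difference was 0.03, against −0.02 over all genes. Without γ1/γ1 replicate 1, the array of low Xist, no member was called either. The γ1/γ1 minus wild-type differences were then 0.18 for Bcl2, −0.30 for Mcl1, 0.11 for Bak1, 0.04 for Bcl2l11, 0.24 for Bid, −0.07 for Bad and 0.65 for Pmaip1, with limma adjusted p of 0.824 or more. That of Bcl2l11 turned sign, and those of Bak1 and Bid moved by over 1.5 times.

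Between ε/ε and γ1/γ1 cells 1 of the 7 was called, Bcl2, which was lower, where 2.66% of genes were called and 1.64% lower. The values did not overlap for 4 of the 7 (Bcl2, Mcl1, Bak1 and Bid), against 21.1% of all genes, and the median difference was −0.40, against 0 over all genes. The comparisons share arrays in pairs, so the 2 results for Bcl2 are not independent of each other.

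**Figure D3:**
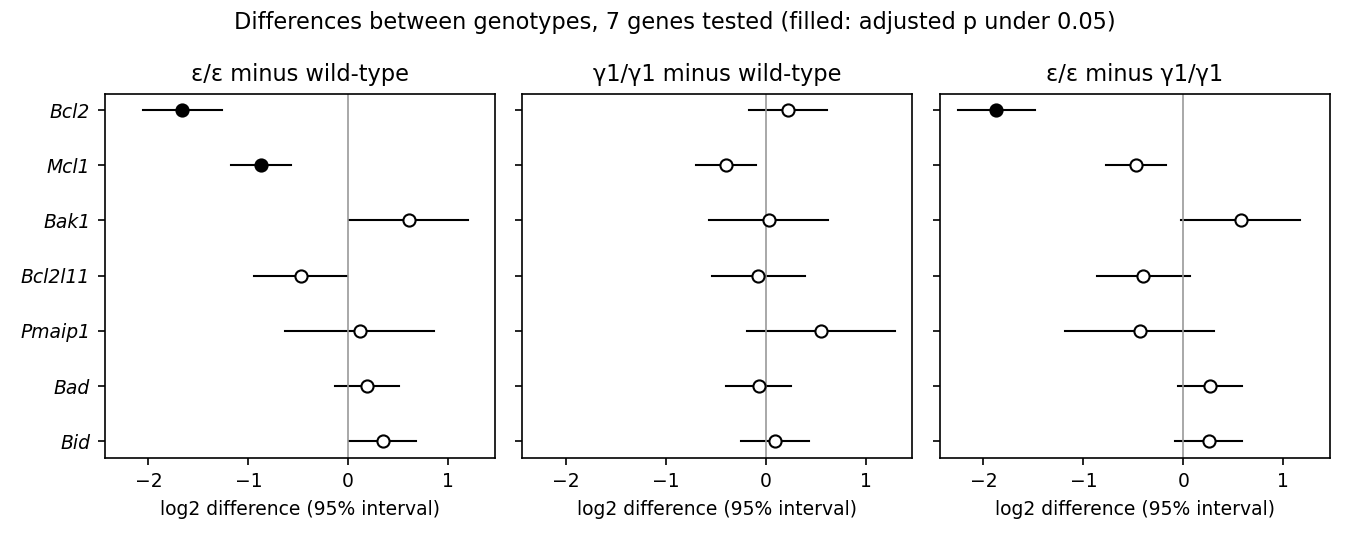
log2 difference (horizontal axis) of each of 7 tested Bcl2 family genes in 3 comparisons, as limma's estimate (points) with its 95% interval (lines); filled points passed an adjusted p of 0.05. Bcl2 is filled at −1.66 and −1.87 in the comparisons with ε/ε cells, Mcl1 (brighter probe set) only at −0.87 against wild-type, and no point is filled for γ1/γ1 against wild-type.

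The balance of Bcl2l11 and Bcl2 RNA, not of their proteins, was also read within each array. It was taken as the log2 signal of the Bcl2l11 probe set minus that of the brighter Bcl2 probe set. Such a difference has no absolute meaning, since probe sets differ in brightness, but it can be compared between arrays. It was −0.96, −1.64 and −1.32 on ε/ε, −3.10, −2.64 and −2.62 on γ1/γ1 and −2.08, −2.80 and −2.58 on wild-type arrays. All 3 ε/ε arrays lay above the other 6. Bcl2l11 itself read lower, not higher, on average in ε/ε than in wild-type cells. The same difference against the brighter Mcl1 probe set was −4.28, −4.55 and −3.99 for ε/ε, −4.40, −4.32 and −4.33 for γ1/γ1 and −4.20, −5.01 and −4.80 for wild-type arrays, and there the genotypes overlapped. Bak1 minus the brighter Mcl1 probe set was −2.34 to −1.50 on ε/ε, −3.19 to −2.92 on γ1/γ1 and −4.02 to −2.95 on wild-type arrays. Brighter Mcl1 minus Bcl2 was 2.67 to 3.32, 1.30 to 1.71 and 2.12 to 2.22 in the same order. Bcl2l1, below the array median, minus Bcl2 was −3.30 to −2.47, −5.37 to −4.85 and −4.91 to −4.80. In each of these, all ε/ε arrays lay above the other 6. Such separations restate the readings of the single probe sets and are no further result. No test was run on these differences.

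Over the 9 arrays, Bcl2 correlated with Mcl1 (brighter probe set) at a Pearson r of 0.79 and with Bcl2l11 at 0.66. Its correlations with Bak1, Bad and Bid were −0.74, −0.73 and −0.71. These are descriptions over arrays that share genotypes, and the position of the ε/ε arrays weighs on all of them. The 5 tested genes most like Bcl2 by Pearson r over the 9 arrays were Lgals8 (0.990), Mir505 (0.987), Rab14 (0.984), Brms1l (0.981) and Chil5 (0.979). Lgals8 encodes the lectin galectin-8, Rab14 a small GTPase of endosomal traffic, and Mir505 a microRNA. Mir505 had the widest separation of the 5, with a mean of 2.90 on ε/ε, 7.60 on γ1/γ1 and 7.56 on wild-type arrays. Its ε/ε mean lay below the array medians of 3.53 to 3.69. The mean of Lgals8 was 7.63, 8.25 and 8.26. That genes chosen by r with Bcl2 read lower on ε/ε arrays follows from the choice. The 5 most like the brighter Mcl1 probe set were Phip (0.979), Ngly1 (0.978), Mier1 (0.976), Nsmce1 (0.971) and 2610528B01Rik (0.969). All 5 had their lowest mean in ε/ε and their highest in wild-type cells, which follows from choosing them by r with that probe set. Ngly1, the cytosolic enzyme that strips N-glycans, stood at 6.06, 6.61 and 7.14 on ε/ε, γ1/γ1 and wild-type arrays.

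Around the 10 genes, 79 others of the cell death pathway were read as 7 lists, and 55 of them were tested. In ε/ε against wild-type cells 2 of the 55 were higher and 3 lower (9.09%, where 6.34% of all genes were called, 2.33% higher and 4.02% lower), and their median difference was −0.10. In γ1/γ1 against wild-type cells limma called none, and 4 had an unadjusted p under 0.05. In ε/ε against γ1/γ1 cells 1 was lower (1.82%, where 2.66% of all genes were called). These counts lie near the background and are given as a description.

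No relative within the family passed. Among 3 tested pro-survival relatives, Bcl2a1a, a gene with near-identical copies that 1 probe set may not separate, had a mean of 5.36 ± 0.51 on ε/ε, 6.05 ± 0.35 on γ1/γ1 and 5.96 ± 0.17 on wild-type arrays (SD, n = 3 each). Its ε/ε minus wild-type difference was −0.60 (limma adjusted p = 0.187) and that of its relative Bcl2a1c −0.29 (adjusted p = 0.387). Among 4 tested effector, BH3-only and other relatives, Bcl2l13, a mitochondrial protein of the family, differed by 0.33 (limma adjusted p = 0.203) and Bmf, a BH3-only gene, by −0.13 (adjusted p = 0.633).

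Downstream of the mitochondria, none of 12 tested genes of the apoptosome, the caspases and the factors mitochondria release passed, and their median difference in ε/ε against wild-type cells was −0.19. Apaf1, the scaffold on which caspase-9 is activated, differed by −0.63 (limma adjusted p = 0.086), and Parp1, a DNA repair enzyme that caspases cleave, by −0.54 (adjusted p = 0.0963). Of 4 tested inhibitors of caspases, 1 fell and the median difference was −0.41. Birc2, which encodes the ubiquitin ligase cIAP1, had a mean of 7.09 ± 0.25 on ε/ε, 7.28 ± 0.16 on γ1/γ1 and 7.74 ± 0.08 on wild-type arrays (SD, n = 3 each). It fell by 0.65 on the log2 scale against wild-type (SE 0.16; limma adjusted p = 0.0431). Xiap, the direct inhibitor of caspases, differed by −0.67 (adjusted p = 0.0693). Birc2 missed the threshold in 12 of 22 alternatives, among them each single array left out except ε/ε replicate 1, with a limma adjusted p up to 0.147.

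In the death receptor pathway 1 of 6 tested genes fell. Cflar encodes cFLIP, which blocks caspase-8 at the receptor. Its mean was 6.07 ± 0.04 on ε/ε, 6.62 ± 0.07 on γ1/γ1 and 6.69 ± 0.09 on wild-type arrays (SD, n = 3 each), and the ε/ε arrays lay below all others. It fell by 0.63 on the log2 scale against wild-type (SE 0.12; limma adjusted p = 0.0181) and by 0.55 against γ1/γ1 (adjusted p = 0.048). The first call was lost without wild-type replicate 2 (adjusted p = 0.071) or 3 (limma adjusted p = 0.0768). The second was lost in 17 of 22 alternatives, among them every single array left out, with a limma adjusted p up to 0.164. Fadd, the adaptor of the same receptors, differed from wild-type by −0.57 (adjusted p = 0.131).

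Among 17 tested controllers of the family, 2 rose in ε/ε against wild-type cells and the median difference was 0.12. Myc, a growth regulator that also primes cells for death, had a mean of 8.07 ± 0.02 on ε/ε, 7.62 ± 0.32 on γ1/γ1 and 7.31 ± 0.19 on wild-type arrays (SD, n = 3 each). It rose by 0.76 (SE 0.18; limma adjusted p = 0.0332). Akt1, the kinase that phosphorylates Bad and FoxO factors, had a mean of 4.90 ± 0.14, 4.26 ± 0.18 and 4.22 ± 0.10, and rose by 0.68 against wild-type (SE 0.15; limma adjusted p = 0.0263). Against γ1/γ1 the Akt1 difference was 0.63 (adjusted p = 0.0504) and the Myc difference 0.45 (adjusted p = 0.194). Myc missed the threshold against wild-type in 10 of 22 alternatives, among them each ε/ε or wild-type array left out, with a limma adjusted p up to 0.133. Akt1 missed it in 4 of 21, without ε/ε replicate 3 or any 1 wild-type array, with an adjusted p up to 0.104.

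Of 10 tested p53 targets outside the family, 1 fell and the median difference was −0.12. Ccng1, a cyclin-like target of p53, had a mean of 7.60 ± 0.15 on ε/ε, 8.0 ± 0.32 on γ1/γ1 and 8.36 ± 0.14 on wild-type arrays (SD, n = 3 each) and fell by 0.76 against wild-type (SE 0.18; limma adjusted p = 0.0365). It missed the threshold in 13 of 22 alternatives, among them every array left out except γ1/γ1 replicates 1 and 3, with a limma adjusted p up to 0.141. Sesn1, a p53-induced stress gene, differed by −0.57 (adjusted p = 0.0803).

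In γ1/γ1 against wild-type cells the listed genes with the smallest p were Cycs, which encodes cytochrome c, at −0.68 (limma adjusted p = 0.649) and Birc2 at −0.45 (adjusted p = 0.657). Stat5a, a transcription factor downstream of cytokine receptors, differed by 0.53 (limma adjusted p = 0.727) and Dffa, the inhibitor of the caspase-activated nuclease, by 0.57 (adjusted p = 0.687).

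**Figure D4:**
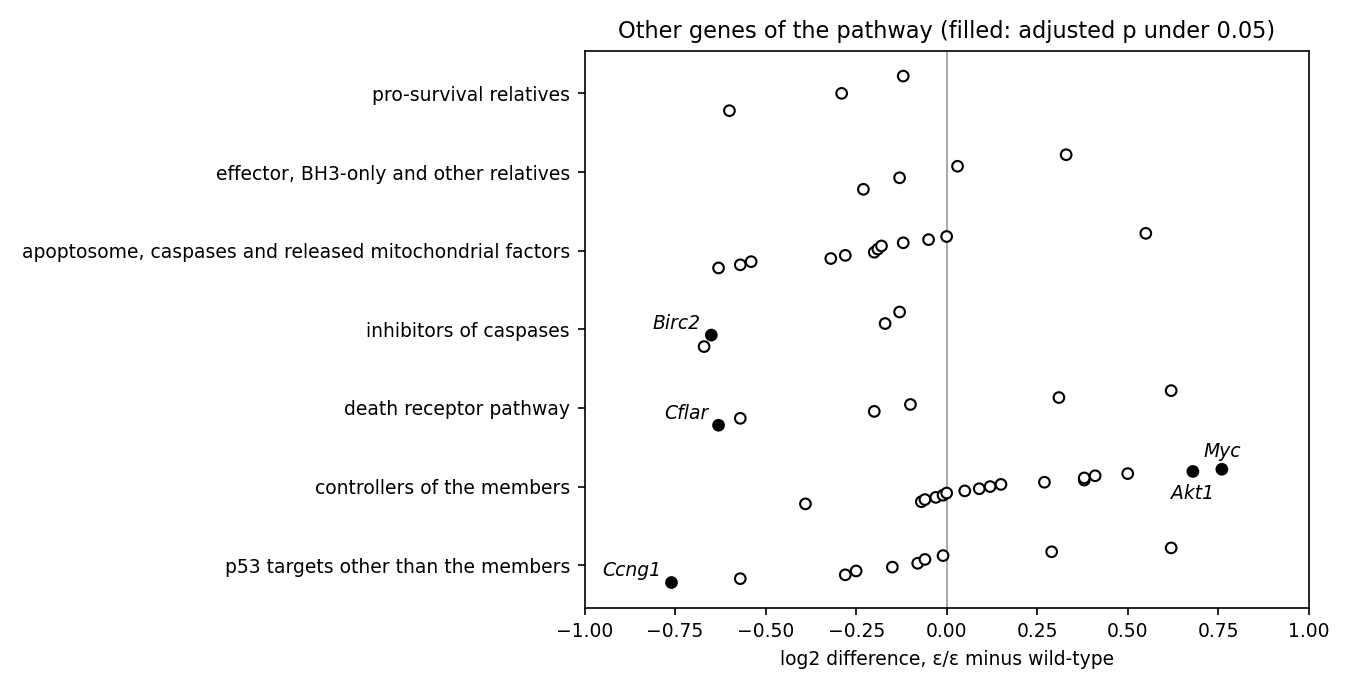
log2 difference in ε/ε minus wild-type cells (horizontal axis) of each tested gene of 7 cell death lists (rows); points are limma's estimates, spread vertically within a row for legibility, and filled points passed an adjusted p of 0.05. Birc2, Cflar and Ccng1 are filled on the lower side, Myc and Akt1 on the higher side, and the other points are open.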

How the data were processed

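Values are the log2 signals that the authors deposited for 41345 probe sets on 9 arrays. TRIzol-extracted RNA was amplified and biotin-labelled, per the labels' protocols. The submitters' processing notes name R 3.3.1, but how background, normalization and probe summary were handled is not given in the sources used here. Per the labels no sequencing depth applies: the number of arrays limits the precision.

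Probe sets with 1 gene symbol in the platform annotation were kept (23521), the brightest over the 9 arrays stood for a gene, and a gene was tested if it exceeded the array median on at least 3 arrays (12170 of 22180 genes). Linear models over all 9 arrays (6 residual degrees of freedom) were fitted with limma 3.58.1 in R 4.3.3, with Benjamini-Hochberg adjustment and a threshold of 0.05. The fit was tested on simulated data. The replicate numbers of the labels were checked for pairing.

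The 10 members and the gene lists were chosen with earlier results of these data known. Named genes were all members, up to 4 passing genes per list or else those with the smallest p, and the 5 genes most like Bcl2 and Mcl1. Where a single gene of a list passed in ε/ε against wild-type cells, the gene with the next smallest p was named too. Alternatives changed the normalization, centring, filter, probe set, variance model, array weights, arrays in the fit, replicate block, Xist and threshold. Promoters and gene strands came from RefSeq tables (GRCm38.p6). Figures were drawn with Python 3.11.15 and matplotlib 3.10.9.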

Additional observations from a re-analysis of the deposited data

How the results depend on the processing

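Over 22 alternatives, 2 of them (the own-strand probe set, and high Xist joined to the mean of probe sets) added after seeing the data like the fit of all probe sets, Bcl2 kept its direction and its call against wild-type and against γ1/γ1 cells, and no member that missed the threshold came to pass it at 0.05. The count of members called between ε/ε and wild-type cells was 1 in place of 2, Bcl2 alone, with an absolute log2 difference of at least 1, with the own-strand probe set, and with the mean of probe sets on arrays of high Xist. Between ε/ε and γ1/γ1 cells it was 2 in place of 1 at an adjusted p under 0.1. Leaving out each array in turn gave 2 members called against wild-type throughout, and 1 against γ1/γ1.

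The counts over all genes moved more. Between ε/ε and wild-type cells limma called 772 genes, and 424 in a fit of the 6 arrays compared, 1626 at an adjusted p under 0.1 and 347 with an absolute log2 difference of at least 1, while leaving out 1 array gave 186 to 789. Between γ1/γ1 and wild-type cells it called 5, and 3 on the arrays of high Xist and 0 to 6 without 1 array. It called 0 on the 6 arrays compared, with 974 at an unadjusted p under 0.05, and 0 with the mean of probe sets on arrays of high Xist, with 891. The count of 0 came without γ1/γ1 replicate 2 (1016 unadjusted), and counts were 3, 2 and 2 without γ1/γ1 replicate 3 and wild-type replicates 2 and 3. Between ε/ε and γ1/γ1 cells it called 324, and 56 on the 6 arrays compared, 513 with low Xist as a covariate, 88 on arrays of high Xist, 87 when these were joined to the mean of probe sets, 803 at an adjusted p under 0.1, 173 with an absolute log2 difference of at least 1, and 122 to 330 without 1 array. Quantile normalization moved the share of calls that were higher from 36.7% to 57.7% against wild-type and from 38.3% to 53.4% against γ1/γ1, where median centring gave 54.5%. The cause was not tested.

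Deviations from the genotype means correlated above 0.1 in 1 of 9 same-numbered pairs of arrays of different genotypes. These 9 ran from −0.091 to 0.156, against −0.073 to 0.084 for 18 pairs of unlike number. Between ε/ε and γ1/γ1 arrays the same-numbered pairs stood at 0.046, 0.156 and 0.047, above the others at −0.073 to 0.013. The correlations are given as a description. With the replicate number as a block, 2, 0 and 1 members and 668, 0 and 237 genes were called in the 3 comparisons (846 genes at an unadjusted p under 0.05 for γ1/γ1 against wild-type); Bcl2 and Mcl1 kept their calls against wild-type, with limma adjusted p of 0.00519 and 0.0156. Pmaip1 was not tested under the filter at percentile 75. With 3 arrays a genotype, limma's 95% intervals of the members reached 0.30 to 0.74 log2 units to either side, and Bcl2l1 and Bbc3, below the array median, gave no difference at all.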
